A study of Homo sapiens with 16 samples.

Results

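Sites with methylated histone H3 lysine 4 were sorted by whether acetylated histone H3 lysine 27 lay on them in Toledo cells, an established lymphoma line, kept for 6 days with the solvent DMSO. A site was a stretch under H3K4me1 peaks of both DMSO libraries, and 8126 of 25268 H3K4me1 stretches met this rule. A site was called active where an H3K27ac peak of each DMSO library overlapped it by at least 1 bp, primed where neither library had such a peak, and intermediate where 1 of them did. There were 1582 active (19.5%), 5203 primed (64%) and 1341 intermediate sites. The 4 peak lists behind them hold 46632 of the 108656 peaks in the 12 lists of the series. The names active and primed stand here only for these overlaps, since neither enhancer activity nor transcription was measured.

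The study mapped H3K27ac (antibody ab4729), H3K4me1 (ab8895) and H3K4me3 (ab8580) by chromatin immunoprecipitation and sequencing in Toledo cells given either DMSO or 5 uM of TP-064 for 6 days. TP-064 blocks CARM1, an enzyme that methylates arginines of histones and of their coactivators. Its title links CARM1 to the acetyltransferases CREBBP and EP300, which are often mutated in lymphoma. Each mark and treatment had 2 libraries, and 4 input libraries complete the 16 samples. All cells came from 1 line. Whether replicate libraries stem from separate cultures is not stated, so each p-value speaks only of the spread among these libraries, and that spread can be technical. No library of untreated cells was analysed here. The DMSO libraries were sequenced on lane 3 and those with the inhibitor on lane 4, and these differences cannot be told apart.

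H3K4me1 is laid down mainly by the methyltransferases KMT2C and KMT2D at enhancers and on the flanks of promoters. CREBBP and EP300 place H3K27ac, which is found at enhancers and promoters in use. Enhancers that carry H3K4me1 without H3K27ac are commonly called primed, since many gain acetylation when a cell is stimulated or differentiates. In B cells, enhancers of this kind lie around the genes of the B-cell receptor, of the germinal centre and of the plasma cell fate.

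The libraries of a mark differed in length before any comparison was made. H3K4me1 had 25058 peaks over 60.4 Mb in replicate 1 and 9673 peaks over 22.1 Mb in replicate 2. H3K27ac had 7885 peaks over 17.3 Mb and 4016 peaks over 7.79 Mb, and H3K4me3 had 12476 and 11481 peaks. Replicate 1 was thus the longer list for each mark. Read depth is unknown, because the lists hold positions only, and a site without a peak may have fallen short of the threshold used for calling. The marks of B cells were present: 9 of 10 B cell marker genes had an active site in the gene or within 10 kb of it, beside 6.84% of all 19974 protein-coding genes, and the tenth, CD22, had primed sites and no active site, beside 15.1% of all genes. Among the other lists, 2 of 11 T and NK cell markers (CD4 and KLRD1), 0 of 8 myeloid, 0 of 5 erythroid and 0 of 8 epithelial and stromal markers had an active site. The site at CD4 lay nearest to the start of LAG3.

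Promoters were sorted by the same marks, and 3 of each state are printed to show how far they differ in CpG dinucleotides, the targets of DNA methylation. Each is the 200 bases before a RefSeq gene start on build GRCh38.p14, read 5′ to 3′ along the gene, with each CpG in capitals. CD79A and ZBTB7B meet the rule for named promoters, as do SEPTIN9, LFNG, RAPGEF3 and PMEPA1, which are not printed. The other 7 were chosen after their values were seen. The first 3 lay under both marks in both libraries. They belong to CD79A, a signalling chain of the B-cell receptor (chr19:41877079-41877278, plus strand), BLNK, an adaptor of the same receptor (chr10:96271570-96271769, minus strand), and MZB1, a chaperone of antibody-secreting B cells (chr5:139389914-139390113, minus strand).
CD79A: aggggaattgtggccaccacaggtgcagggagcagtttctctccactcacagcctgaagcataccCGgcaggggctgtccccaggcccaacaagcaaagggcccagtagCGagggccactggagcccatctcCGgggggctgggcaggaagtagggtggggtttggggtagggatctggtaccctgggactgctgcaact
BLNK: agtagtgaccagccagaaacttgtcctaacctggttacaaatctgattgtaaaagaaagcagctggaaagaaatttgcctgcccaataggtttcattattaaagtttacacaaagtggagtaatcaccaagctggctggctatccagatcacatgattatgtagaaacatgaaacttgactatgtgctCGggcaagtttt
MZB1: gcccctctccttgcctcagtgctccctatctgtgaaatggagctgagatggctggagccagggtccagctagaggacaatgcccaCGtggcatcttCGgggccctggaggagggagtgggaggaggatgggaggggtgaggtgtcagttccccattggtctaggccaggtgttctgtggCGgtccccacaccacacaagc

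The next 3 lay under H3K4me1 of both libraries and H3K27ac of neither. They belong to ZBTB7B, a transcription factor of lymphocyte fate (chr1:155002449-155002648, plus strand), CXCR5, a chemokine receptor that guides B cells into follicles (chr11:118893192-118893391, plus strand), and IRF8, a transcription factor of B and myeloid cells (chr16:85902815-85903014, plus strand).
ZBTB7B: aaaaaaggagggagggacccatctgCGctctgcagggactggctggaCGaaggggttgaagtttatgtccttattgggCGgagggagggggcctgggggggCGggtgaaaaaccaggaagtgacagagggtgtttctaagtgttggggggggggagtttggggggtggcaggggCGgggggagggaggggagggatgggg
CXCR5: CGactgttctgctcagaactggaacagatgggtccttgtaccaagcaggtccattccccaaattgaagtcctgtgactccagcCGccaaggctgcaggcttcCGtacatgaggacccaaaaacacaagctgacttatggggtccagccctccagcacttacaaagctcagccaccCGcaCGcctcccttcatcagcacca
IRF8: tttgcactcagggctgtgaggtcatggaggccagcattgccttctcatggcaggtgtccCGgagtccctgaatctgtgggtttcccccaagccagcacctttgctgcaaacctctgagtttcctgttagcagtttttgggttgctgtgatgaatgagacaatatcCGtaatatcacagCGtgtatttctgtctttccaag

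The last 3 lay under H3K27ac of both libraries and H3K4me1 of neither. They belong to PAX5, the master factor of B-cell identity (chr9:37034269-37034468, minus strand), CREBBP, the acetyltransferase itself (chr16:3880121-3880320, minus strand), and BCL6, the repressor that drives the germinal centre programme (chr3:187745469-187745668, minus strand).
PAX5: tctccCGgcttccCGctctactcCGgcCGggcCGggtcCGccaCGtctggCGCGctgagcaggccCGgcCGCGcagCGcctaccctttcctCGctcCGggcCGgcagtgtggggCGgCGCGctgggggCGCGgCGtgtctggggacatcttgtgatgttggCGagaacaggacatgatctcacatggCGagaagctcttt
CREBBP: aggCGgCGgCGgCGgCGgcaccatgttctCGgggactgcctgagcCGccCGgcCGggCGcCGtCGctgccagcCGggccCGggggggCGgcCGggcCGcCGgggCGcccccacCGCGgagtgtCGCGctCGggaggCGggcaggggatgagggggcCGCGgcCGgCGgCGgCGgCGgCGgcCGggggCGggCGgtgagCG
BCL6: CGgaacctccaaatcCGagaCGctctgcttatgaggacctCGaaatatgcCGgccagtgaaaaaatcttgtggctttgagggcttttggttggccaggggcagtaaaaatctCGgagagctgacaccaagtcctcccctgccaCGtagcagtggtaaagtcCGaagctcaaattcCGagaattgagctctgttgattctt

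The printed stretches hold 3, 1 and 3 CpG under both marks, 5, 5 and 3 under H3K4me1 alone, and 24, 37 and 9 under H3K27ac alone. Other genes did not keep this order. The stretches of BTG2 and E2F1 under both marks held 24 and 33 CpG, that of PIK3CD under H3K4me1 alone held 28, and that of EBF1 under H3K27ac alone held 6. Under H3K4me1 alone, a second stretch of ZBTB7B held 10 CpG and those of PMEPA1 held 6, 27 and 14. IRF8, CREBBP and BCL6 have 2 windows each, and the window not printed was in none of the 3 states. The printed stretch thus does not stand for every start of these genes. Over all 22130 RefSeq windows of 15810 protein-coding genes, the median was 16 CpG in the 250 bases before the start. It was 12 in the 163 windows under both marks, 17 in the 695 under H3K4me1 alone and 24 in the 1819 under H3K27ac alone. Some genes have several windows, and neighbouring windows can overlap. The order of the first 2 classes turned with the library: within replicate 1 the medians were 21 under both marks, 19 under H3K4me1 alone and 23 under H3K27ac alone, and within replicate 2 they were 12, 17 and 24. H3K27ac alone had the highest median in both replicates.

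Short motifs were counted in the same 250 bases on both strands. The ETS core AGGAAGT, a site for factors such as SPI1 and SPIB, was in 14.1% of the windows under both marks, 7.77% of those under H3K4me1 alone, 5.72% of those under H3K27ac alone and 6.88% of all windows. It stands once in the printed stretch of CD79A and once in that of ZBTB7B. The GC box GGGCGG, which itself holds a CpG, was in 53.4%, 64.9% and 71.8% of the same 3 classes and in 53.7% of all windows. The octamer core TTTGCAT was in 3.68%, 3.74% and 2.97%, against 3.50% of all windows. These are counts of letters and not of bound sites. The class under both marks was small, with 163 windows of 137 genes. Its size turned on the library, with 1219 windows in replicate 1 alone and 171 in replicate 2 alone. Motif shares were not computed within single libraries. Of the windows under both marks 77.9% also lay under H3K4me3 of both libraries, against 55.4% of those under H3K4me1 alone and 100% of those under H3K27ac alone.

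The first comparison asked how the marks overlapped. Active sites made up 19.5% of the shared H3K4me1 sites (95% Wilson interval 18.6 to 20.3), primed sites 64% (63.0 to 65.1) and intermediate sites 16.5% (15.7 to 17.3). These intervals cover counting error only. Of the intermediate sites, 1302 had H3K27ac in replicate 1 and 39 in replicate 2. Active sites covered 9.38 Mb and primed sites 16.3 Mb. Within a library pair, 70.1% and 40.7% of the H3K27ac peaks overlapped H3K4me1, and 24.7% and 18.3% of the H3K4me1 peaks overlapped H3K27ac. The means were 55.4 ± 20.8% and 21.5 ± 4.53% (SD, n = 2). Both shares count the same overlaps, and the H3K27ac list was the shorter in each pair, so the list lengths fix which share is the higher and no test is given for their difference of 33.9 points.

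Viewed from H3K27ac, 3328 regions had peaks of both libraries, and 1535 of them (46.1%) met H3K4me1 of both libraries, 1063 (31.9%) of 1 library and 730 (21.9%) of neither. The 730 regions without H3K4me1 lay mostly at gene starts: 663 (90.8%) reached within 2 kb of a gene start and 707 (96.8%) met H3K4me3 of both libraries. Of the 1535 regions with H3K4me1, 32.7% reached a gene start and 34.5% met H3K4me3 of both libraries. H3K27ac peaks with H3K4me1 had a median width of 1997 bp in replicate 1 and 2050 bp in replicate 2, against 1379 and 1344 bp without it. The difference of 662 bp was larger than the spread between the libraries of either class (2024 ± 37.5 against 1362 ± 24.7 bp, SD, n = 2), with a two-sided exact permutation p of 0.33. This is the smallest p that 2 values against 2 allow, so no comparison here can reach 0.05. With lists of equal length within each mark the difference was 679.5 bp, but the groups overlapped (exact permutation p = 0.67). A wider H3K27ac peak also has more room for an overlap with H3K4me1, and the part of this in the difference was not tested.

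The way H3K4me1 lay around H3K27ac differed with H3K4me3. At 2125 shared H3K27ac regions with H3K4me3 of both libraries, H3K4me1 of replicate 1 covered 19.6% of the region centres but 44.0% and 46.4% of the points 1 kb to either side, and 21.2% and 20.1% of those at 3 kb. Replicate 2 had the same dip at a lower level, with 8.80% at the centre and 14.4% and 14.5% at 1 kb. At 1114 shared regions without H3K4me3, H3K4me1 had no such dip: it covered 94.2% of the centres and 94.1% and 93.3% of the points at 1 kb in replicate 1, and 69.1%, 68.2% and 67.8% in replicate 2. The flanking shape at regions with H3K4me3 and the filled shape at regions without it were thus present in each library.

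**Figure D1:**
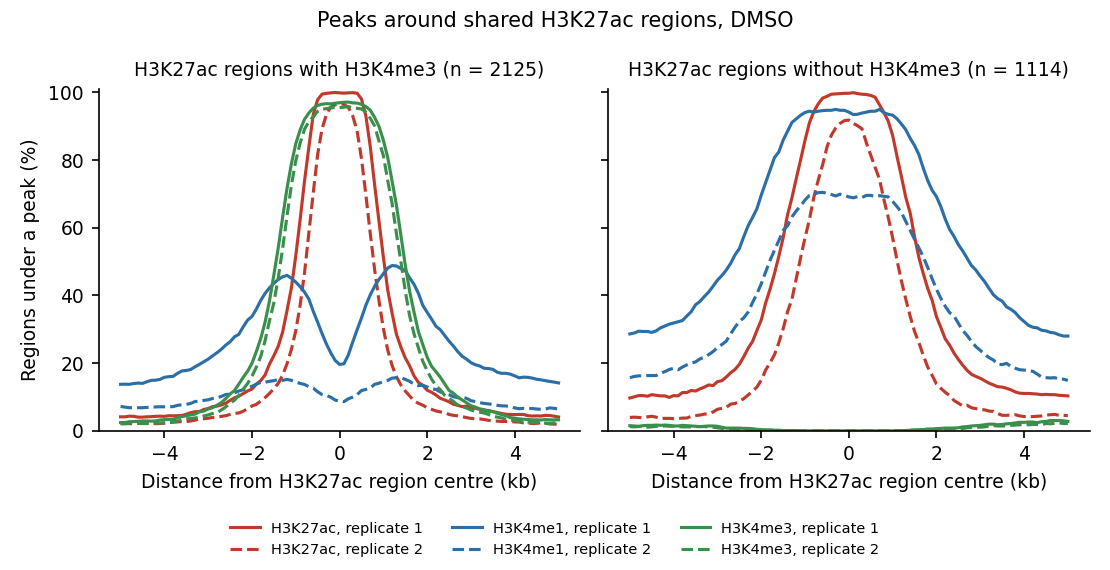
Share of shared H3K27ac regions (vertical axis, percent) that lie under a peak of H3K27ac, H3K4me1 or H3K4me3 at each distance from the region centre (horizontal axis, kb), for replicate 1 (solid) and replicate 2 (dashed). On the left, H3K4me1 dips to 19.6% and 8.80% at the centre of regions with H3K4me3, and on the right it stands at 94.2% and 69.1% in regions without it.

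How H3K27ac lay on active sites differed between the libraries. A median of 60.8% of an active site lay under H3K27ac of replicate 1 and 38.4% under that of replicate 2. In 56.1% and 34.4% of the 1935 and 1830 overlapping peak pairs the H3K27ac peak lay wholly inside the H3K4me1 peak, in 3.05% and 5.36% it spanned it, and in 40.9% and 60.3% the peaks overlapped at an edge. The most frequent case was thus an H3K27ac peak inside H3K4me1 in replicate 1 and an overlap at an edge in replicate 2. The median overlap was 2416 and 1356 bp. Of the 1582 active sites, 1478 held 1 shared H3K27ac region and 98 held more, while 6 had H3K27ac peaks of both libraries that did not meet each other.

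Active sites had the wider H3K4me1 peaks. Their median width was 4808.5 bp in replicate 1 and 2429 bp in replicate 2, against 2709 and 1694 bp at primed sites. Intermediate sites lay between, with 3805.5 and 2021 bp, and peaks found in 1 library alone were the narrowest at 1538 and 1289 bp. Active peaks were wider by 2099.5 bp in replicate 1 and 735 bp in replicate 2. With sites and classes taken from 1 library pair alone, the difference was 646.5 bp for replicate 1 and 914.5 bp for replicate 2, against 1417 bp with both. The means of 3619 ± 1683 and 2202 ± 718 bp (SD, n = 2) overlapped, because active peaks of replicate 2 were narrower than primed peaks of replicate 1, and the exact permutation p was 0.667. That test leaves out that both classes were measured in the same libraries. With each library as a pair, the exact sign-flip p was 0.5, the smallest that 2 pairs allow. A wider peak has more room for an overlap, and the part of this in the difference was not tested.

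**Figure D2:**
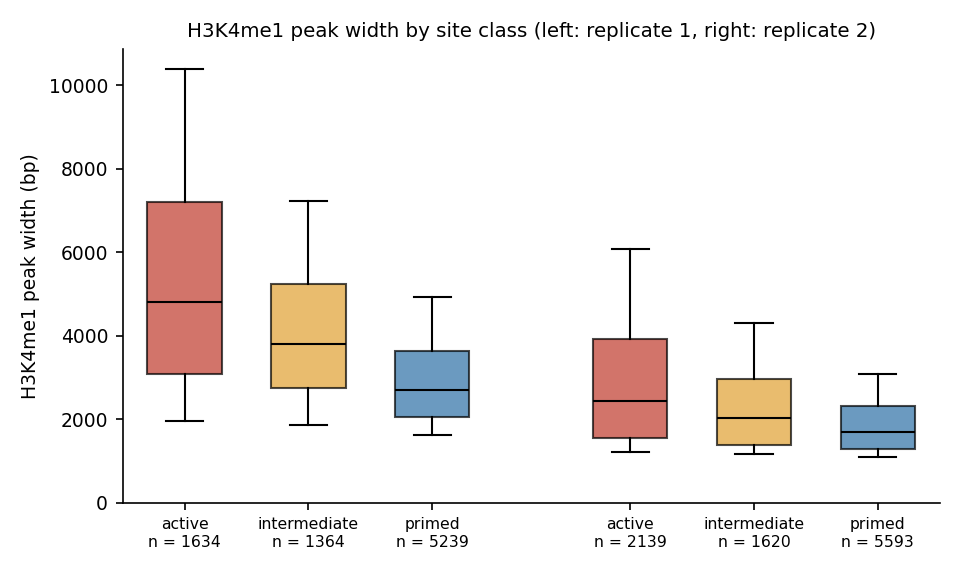
Width of H3K4me1 peaks (vertical axis, bp) at active, intermediate and primed sites for replicate 1 (left) and replicate 2 (right), with n the number of peaks. Boxes span the middle 50% of peaks with a line at the median and whiskers reach from the 10th to the 90th percentile, and in each replicate the order runs from active (4808.5 and 2429 bp) to primed (2709 and 1694 bp).

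Along the range of widths the share of active sites was flat and then steep. When the peaks of shared sites were put into 10 classes of equal number by width, 12% of the narrowest and 60.3% of the widest were active in replicate 1, with the lowest share (8.38%) in the third class. In replicate 2 the shares ran from 14.1% to 54.7%. Primed sites made up 75.2% and 71.6% of the narrowest class and 18.1% and 23.2% of the widest. Active sites therefore outnumbered primed sites in the widest class of each library. The narrow active peaks of replicate 1 mostly overlapped H3K4me3, with 74.7% of those in the narrowest class against 28.4% of the primed peaks. The shares that overlapped H3K4me3 in the widest class were 41.2% and 37.6%. In replicate 2 the same shares were 28.8% and 18.7% in the narrowest class and 22.5% and 17.5% in the widest.

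**Figure D3:**
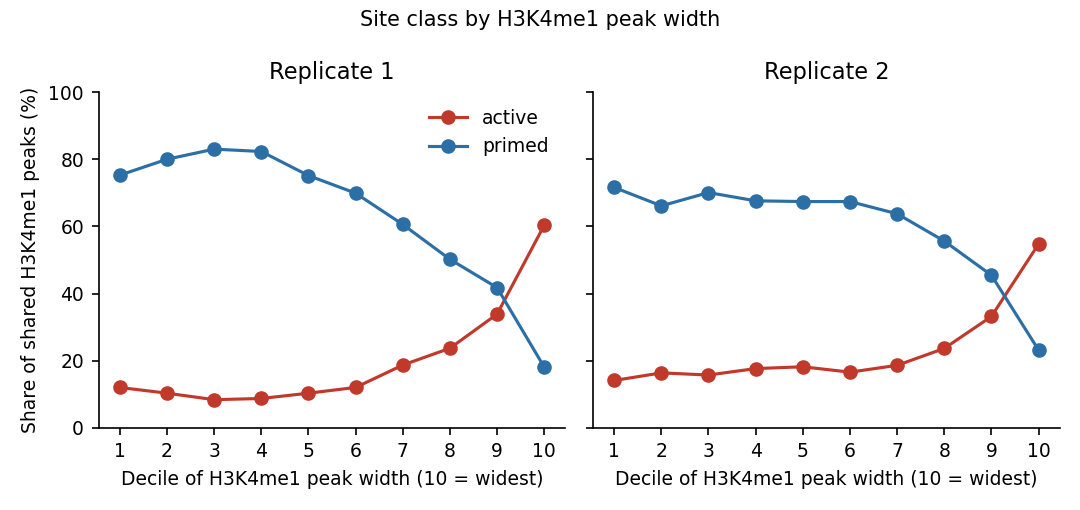
Share of H3K4me1 peaks at shared sites (vertical axis, percent) that belong to active (red) or primed (blue) sites in each of 10 width classes (horizontal axis, 10 = widest) of replicate 1 and replicate 2. The lines cross between the ninth and the tenth class, where active peaks reach 60.3% and 54.7%.

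The second comparison asked where the sites lay. Active H3K4me1 peaks reached within 2 kb of a gene start in 36.8% and 28.6% of cases, and primed peaks in 24.1% and 22.6%. The means were 32.7 ± 5.8 and 23.4 ± 1.1% (SD, n = 2), the groups did not overlap, and the difference of 9.37 points had an exact permutation p of 0.33. This direction depended on how much overlap was asked for: with an overlap of at least 50% of the shorter peak, active peaks lay at gene starts less often, by -4.50 points. With lists of equal length within each mark the difference was 4.77 points and the groups overlapped (exact permutation p = 0.67). It also moved with single libraries, from 5.87 points without replicate 1 to 24.7 without replicate 2. Gene bodies away from starts held 33.5% and 40.1% of active peaks and 46.9% and 47.8% of primed peaks. The space between genes held 29.7% and 31.3% of active and 29.0% and 29.6% of primed peaks.

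H3K4me3 overlapped 43.8% and 28.2% of the active H3K4me1 peaks and 19.3% and 15.1% of the primed ones. The means of 36.0 ± 11 and 17.2 ± 3.0% (SD, n = 2) differed by 18.8 points (exact permutation p = 0.33), and the groups did not overlap. Asking for an overlap of 50% shrank the difference to 3.06 points, and it was 14.5 points without replicate 1 and 33.2 without replicate 2. The distance to the nearest gene start gave no stable order. Its median was 14989 and 15742.5 bp for active and 14546.5 and 14296.5 bp for primed peaks, a log2 difference of 0.09 (exact permutation p = 0.33), and the sign turned with 3 other choices: to -1.98 without replicate 2, to -0.11 when H3K27ac within 1 kb counted and to -0.29 with all genes of the reference table.

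**Figure D4:**
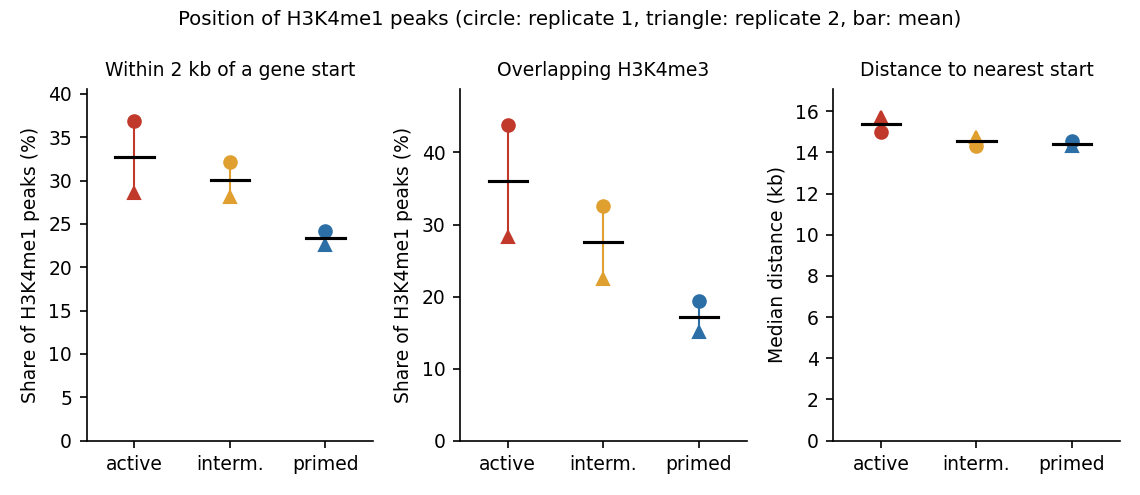
Share of H3K4me1 peaks within 2 kb of a gene start (left, percent) and overlapping H3K4me3 (middle, percent), and median distance to the nearest gene start (right, kb), for active, intermediate and primed sites, with a circle for replicate 1, a triangle for replicate 2 and a bar at the mean. Active peaks lie above primed peaks in both libraries for gene starts (36.8% and 28.6% against 24.1% and 22.6%) and for H3K4me3, while the median distances of active and primed peaks lie between 14296.5 and 15742.5 bp.

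Active sites were of more than 1 kind. H3K4me3 of both libraries lay on 641 active sites (40.5%), and 78.8% of these reached a gene start. No H3K4me3 lay on 871 active sites (55.1%), of which 50.9% were in gene bodies, 41.2% between genes and 7.92% at gene starts, with a median site width of 5413 bp. Of the primed sites 848 (16.3%) had H3K4me3 of both libraries and 4191 (80.5%) had none. The active share was 34.2% (95% Wilson interval 32.1 to 36.3) of the 1876 sites with H3K4me3 and 14.6% (13.7 to 15.5) of the 5961 sites without it. By position it was 26.0% at gene starts, 19.4% between genes and 15.2% in gene bodies.

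The extent of the overlap differed between these kinds. In 1247 active sites (78.8%) H3K27ac of both libraries overlapped the site by at least 50% of the shorter stretch, and 26.5% of these reached a gene start and 27.2% had H3K4me3 of both libraries. In the other 335 sites the overlap was shorter than this in at least 1 library, and 79.1% of them reached a gene start and 90.1% had H3K4me3. The median site width was 5620 bp in the former and 2755 bp in the latter, close to the 2759 bp of primed sites. Of the primed sites 24.2% reached a gene start.

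The nearest other shared site of an active site was active in 37.5% and primed in 44.4% of cases, and that of a primed site was active in 15.8% and primed in 69.1%, beside 19.5% active and 64% primed among all sites. The median gap to the nearest shared site of any class was 6288.5 bp for active and 13016 bp for primed sites. Neighbouring sites under 1 H3K27ac region can all be called active by the rule. Of the shared H3K27ac regions, 117 lay at 2 or more active sites and 1450 at 1. The part of this in the shares of neighbours and in the gaps was not tested. Primed sites lay a median of 35387 bp from the nearest H3K27ac peak of replicate 1 and 76117 bp from that of replicate 2. Only 2.27% and 0.98% of them had such a peak within 1 kb, and 22.2% and 12.8% had it within 10 kb. Among chromosomes the active share was highest on chromosome 21, with 51 of 168 sites (30.4%, 23.9 to 37.7), and on X, with 41 of 142 (28.9%, 22.1 to 36.8). It was lowest on chromosome 15, with 17 of 163 (10.4%, 6.61 to 16.1). The share of H3K4me1 peaks with H3K27ac on these chromosomes was 31.6% and 28.6% on 21, 28.5% and 27.8% on X, and 17.6% and 9.60% on 15. Copy number differences of the line were not measured.

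The active sites of highest rank in H3K4me1 width lay at the following genes. Rank is the percentile of the width within a list, the lower of both libraries, and coordinates are on hg38. The widths given for a site are those of the widest peak of each library on it, in the order of the replicates, and an H3K27ac peak can run past the site. The nearest gene is that whose start lies closest to the site centre. At SEPTIN9, a cytoskeletal septin, H3K4me1 was 27091 and 23909 bp wide and the H3K27ac 11008 and 4296 bp (chr17:77424407-77451497, at a gene start). FAM53B had H3K4me1 of 23542 and 23156 bp inside the gene (chr10:124609665-124633223) with H3K27ac of 8020 and 4026 bp. At CD81, a tetraspanin of the B-cell surface, the H3K4me1 peaks measured 22238 and 19016 bp and the H3K27ac peaks 19264 and 12877 bp (chr11:2378240-2400477). In each of these the acetylated stretch was the narrower mark in both libraries. MCL1, a survival factor of the BCL2 family, had H3K4me1 of 18551 and 18228 bp and H3K27ac of 10021 and 4706 bp (chr1:150559622-150578172). GRK2, a kinase of G protein-coupled receptors, lay under the centre of a site of 21803 and 21420 bp whose nearest gene start was that of ANKRD13D (chr11:67267189-67289057). The others of the first 8 lay nearest to CIRBP, an RNA-binding protein of the cold response (18624 and 16812 bp), PLEC, a cytoskeletal linker (18187 and 17946 bp), and BAHCC1 (36148 and 15502 bp). At CIRBP and PLEC the H3K27ac peaks were short, with widths of 3385 and 1564 bp and of 2051 and 1804 bp.

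The widest primed sites were narrower than these and had no H3K27ac peak in either library. MAPKAPK2, a kinase below p38, had H3K4me1 of 16949 and 9500 bp (chr1:206671080-206688028). ZBTB7B had 16446 and 8751 bp over its starts (chr1:154998150-155014595), which include the promoter printed above. LFNG, a glycosyltransferase that modifies Notch receptors, had 13869 and 9208 bp (chr7:2517683-2531551), although another LFNG start upstream of this site lay under both marks. All 3 sites also had H3K4me3 of both libraries. RAPGEF3, an exchange factor activated by cyclic AMP, had 11611 and 11543 bp (chr12:47748442-47760121). Without H3K4me3 were a site of 9907 and 9467 bp in PMEPA1, an inhibitor of TGF-beta signalling, and a site of 9908 and 8243 bp in CCDC88C. The first 8 also held a second site of PMEPA1 (13728 and 8243 bp) and a site near LRRC32, which holds latent TGF-beta at the cell surface (10599 and 8282 bp).

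The widest shared H3K27ac regions all met H3K4me1 of both libraries, but not over the same length. Near IGLL5, at the immunoglobulin lambda locus, H3K27ac peaks of 29657 and 26659 bp had 24670 and 21560 bp of the region under H3K4me1 (chr22:22917998-22947654). At RCSD1 the H3K27ac peaks of 21254 and 8245 bp lay in a region with 20806 and 20250 bp of H3K4me1 (chr1:167614464-167636273), and at SPAG16 peaks of 20817 and 14603 bp had 20492 and 13352 bp (chr2:213225167-213245983). RUBCNL, a regulator of autophagy, differed: of a region with H3K27ac of 25801 and 11605 bp only 10942 and 1101 bp lay under H3K4me1 (chr13:46369071-46394871). The fifth lay near CLECL1 (chr12:9716785-9738652), where the libraries disagreed on the width of H3K27ac, with 3970 and 17911 bp.

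The third comparison asked which genes held each kind of site in the gene or within 10 kb. Of all protein-coding genes, 1367 (6.84%) had an active site, 3018 (15.1%) had primed sites and no active site, 528 had intermediate sites only and 15061 had no shared site. Of the genes with an active site, 657 also had a primed site, and 853 genes (4.27% of all) had an active site that lay nearest to their own start. Both kinds clustered in some genes. MSI2, an RNA-binding protein of stem and blood cells, had 11 active sites over 102949 bp beside 6 primed sites. SYNE3 and BCOR, a partner of BCL6 in repression, had 6 active sites each, and GAB1, ADARB2, ETV6, CYTH1 and ZCCHC7 had 5 each. The genes with the most primed sites and none active were VAV2, an exchange factor below antigen receptors, with 10, CUEDC1 with 9, and ITPKB, a kinase of inositol phosphates, and ITGB2, the beta chain of leukocyte integrins, with 8 each. NFATC1, CHLSN, HDAC4 and PIEZO1 had 7 primed sites each. Some of these sites lay nearest to the start of another gene. Nearest to the gene's own start were 6 of the 11 active sites of MSI2 and 2 of the 5 of ZCCHC7. The same held for 4 of the 8 primed sites of ITPKB, 3 of the 7 of NFATC1 and 0 of the 7 of CHLSN. At SYNE3, BCOR, GAB1, ADARB2, CYTH1, CUEDC1 and HDAC4 all did. The part of gene length in these counts was not tested.

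Most genes of B-cell identity and of the B-cell receptor held active sites. Of 25 transcription factors of B-cell identity, 15 (60%) had an active site and 7 (28.0%) primed sites only, beside 6.84% and 15.1% of all genes. Of 30 genes of the B-cell receptor and its signalling, 17 (56.7%) had an active site, in each case 1 nearest to the gene's own start, and 6 had primed sites only. Genes with an active site in single libraries were 19 and 14 of the 25 factors and 27 and 17 of the 30 receptor genes. Of all genes they were 23.1% and 6.48%. Primed-only shares in single libraries were 24% and 28% for the factors and 6.67% and 23.3% for the receptor genes. Of all genes these were 29.2% and 18.7%, so that in replicate 1 both lists lay below all genes. These lists hold longer genes, with medians of 106598 and 55780 bp against 24170.5 bp for all genes, and the part of length in the counts was not tested. For sites nearest to the gene's own start the counts were 14 of 25 and 17 of 30, beside 4.27% of all genes.

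Among the transcription factors, MEF2D, a partner of histone deacetylases and acetyltransferases, had the widest active site, with H3K4me1 of 19621 and 11841 bp and H3K27ac of 19227 and 17752 bp across its start (chr1:156480156-156499776). At IKZF3, the lymphoid factor Aiolos, an active site inside the gene had H3K4me1 of 5952 and 5332 bp and H3K27ac of 5051 and 4101 bp (chr17:39791366-39797317), with no H3K4me3. TCF4, which encodes an E protein, had 3 active sites, the widest with H3K4me1 of 6099 and 4972 bp (chr18:55445923-55452021). IKZF1 also had 3, and the widest of them (6862 and 5891 bp) lay past the gene and nearest to FIGNL1. SPIB and SPI1, ETS factors, had active sites at their starts, with H3K4me1 of 6037 and 4867 bp and of 3750 and 3361 bp.

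PAX5 showed all 3 states in the gene or within 10 kb of it. Its active site lay outside the gene, upstream of the start (chr9:37037451-37040973), with H3K4me1 of 1865 and 3338 bp beside H3K27ac of 7583 and 6076 bp, so that here the acetylated stretch was the wider. A primed site of 3303 and 2092 bp lay in the gene body (chr9:37010506-37013808), as did an intermediate site of 15060 and 4915 bp whose H3K27ac (4161 bp) was in replicate 1 alone. EBF1, which works with PAX5, had an active site of 2577 and 1748 bp in its body under H3K27ac of 4707 and 3836 bp (chr5:158749682-158752262), and 2 primed sites. Primed sites without any active site were found at IRF8, which had 3 (the widest 5750 and 5075 bp, chr16:85907154-85912903), at FOXO1, which had 4 (2990 and 2826 bp), and at BCL11A, which had 2 (3367 and 2651 bp). A RefSeq start window of BCL11A nevertheless lay under H3K27ac and H3K4me3 of both libraries, without H3K4me1. BCL6 and BACH2, repressors that hold back the plasma cell fate, had no shared H3K4me1 site within 10 kb. The BCL6 promoter printed above nevertheless lay under H3K27ac of both libraries.

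In the B-cell receptor list the signalling chains were active. At CD79B the wider of 2 active sites had H3K4me1 of 9416 and 9331 bp and H3K27ac of 11601 and 4830 bp (chr17:63921907-63931332). At CD79A the wider of 2 had H3K4me1 of 16869 and 6323 bp and H3K27ac of 3263 and 1813 bp, ending just past the promoter printed above (chr19:41860553-41877421). PTPN6, the phosphatase SHP-1 that restrains the receptor, had H3K4me1 of 16054 and 15253 bp with H3K27ac of only 2186 and 1846 bp (chr12:6948578-6965298). PIK3CD, the lymphocyte PI3 kinase, had 3 active and 5 primed sites, and PLCG2, a phospholipase of the pathway, had 2 and 5. MS4A1, which encodes CD20, had 2 active sites, the wider with 7370 and 3166 bp of H3K4me1. CD22, an inhibitory co-receptor, stood apart with 2 primed sites (the wider 4812 and 2840 bp at its start, with H3K4me3) and 1 intermediate site. VAV2 held only primed sites beside 1 intermediate site, and SYK, a kinase of the same pathway, had primed sites only.

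**Figure D5:**
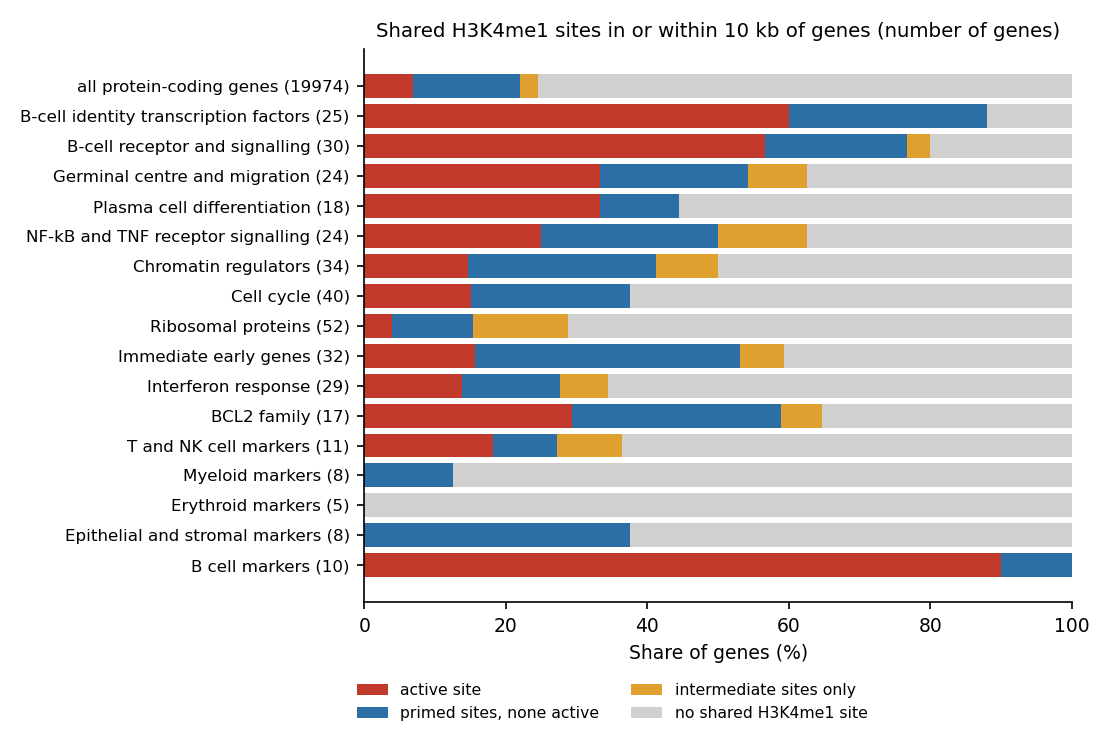
Share of the genes of each list (horizontal axis, percent, with the number of genes in brackets) that had an active site, primed sites and no active site, intermediate sites only or no shared H3K4me1 site in the gene or within 10 kb. The 10 B cell markers, the 25 identity factors and the 30 receptor genes have active shares of 90%, 60% and 56.7%, against 6.84% of all genes in the top bar.

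The other lists are read against 6.84% of all genes with an active site and 15.1% with primed sites only, and, for active sites in 1 library pair alone, against 23.1% in replicate 1 and 6.48% in replicate 2. Primed sites only in 1 library pair alone are read against 29.2% of all genes in replicate 1 and 18.7% in replicate 2. Of 24 germinal centre and migration genes, 8 (33.3%) had an active site, with 12 and 8 in single libraries, and 5 (20.8%) had primed sites only. Single libraries gave primed-only shares of 33.3% and 29.2%. CCR7, the receptor that draws lymphocytes to lymph nodes, had an active site with H3K4me1 of 10751 and 11848 bp and H3K27ac of 4845 and 3252 bp (chr17:40545564-40566622), and GCSAM (16690 and 10248 bp) had 2. CXCR5 had no active site and 3 primed sites (the widest 6091 and 5737 bp, nearest to the start of BCL9L), and S1PR2, which confines B cells to the germinal centre, likewise had 3 primed sites only (the widest 5852 and 1843 bp). CXCR4, the receptor that holds B cells in the dark zone, had both active and primed sites. Of 18 plasma cell genes 6 (33.3%) had an active site, with 10 and 6 in single libraries, and 2 (11.1%) had primed sites only. The primed-only share was 33.3% and 11.1% in single libraries. The active genes included MZB1 (10953 and 5366 bp), TNFRSF13B, the receptor TACI (11216 and 5630 bp), and POU2AF1, the coactivator OCA-B (3733 and 1874 bp). Of the regulators of this fate, PRDM1 had 1 primed site of 1535 and 1547 bp at a gene start (chr6:106082996-106084600), XBP1 had 1 of 3493 and 1432 bp, and IRF4 had no shared site. RefSeq start windows of XBP1 and IRF4 nevertheless lay under H3K27ac and H3K4me3 of both libraries.

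Immediate early genes, which are switched on within minutes of a stimulus, had an active site in 5 of 32 genes (15.6%, 13 and 6 in single libraries) and primed sites only in 12 (37.5%), beside 6.84% and 15.1% of all genes. The primed-only share was 43.75% and 40.6% in single libraries, beside 29.2% and 18.7% of all genes. FOS and JUN were primed with H3K4me3 of both libraries, with H3K4me1 of 3602 and 1493 bp and of 1157 and 1105 bp, as was JUND with 4488 and 3456 bp. BTG2, an antiproliferative factor, had 3 active sites, the widest with H3K4me1 of 13204 and 12053 bp and H3K27ac of 10330 and 9371 bp. In the BCL2 family, 5 of 17 genes (29.4%, 10 and 4 in single libraries) had an active site, beside 6.84% of all genes, including BCL2 itself (13156 and 10473 bp inside the gene, chr18:63150613-63164061), and 5 (29.4%, beside 15.1%) had primed sites only. The 5 were BID, BIK, BMF, BBC3 and HRK, which promote cell death. Single libraries gave primed sites only at 29.4% and 41.2% of the family, beside 29.2% and 18.7% of all genes. Of the active ones, BCL2, MCL1 and BCL2L1 protect from it, PMAIP1 promotes it, and BCL2L12 was also active. Of the remaining members 1 had intermediate sites only and 6 had no shared site. A RefSeq start window of BCL2L11, of the same family, lay under H3K27ac and H3K4me3 of both libraries without H3K4me1. Whether the states follow the function of these genes was not tested.

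Of 34 chromatin regulators 5 (14.7%, beside 6.84% of all genes) had an active site, namely PRMT1, KDM5B, ARID1A, ARID1B and HDAC7, and 9 (26.5%, beside 15.1%) had primed sites only. The primed-only share in single libraries was 47.1% and 44.1%, beside 29.2% and 18.7% of all genes. The active count rested on the library: it was 15 in replicate 1 alone and 2 (5.88%, beside 6.48% of all genes) in replicate 2 alone. For sites nearest to the gene's own start it was 3 (8.82%, beside 4.27% of all genes). The median gene length of this list was 85008.5 bp against 24170.5 bp for all genes, and the part of length was not tested. CREBBP had 4 primed sites, the widest of 4991 and 1423 bp in the gene body (chr16:3786991-3791981) and nearest to the start of TRAP1. CARM1, the target of the inhibitor, had 1 primed site of 2959 and 1170 bp, nearest to the start of C19orf38. EP300 had no shared site, though its promoter, like the CREBBP promoter printed above, lay under H3K27ac of both libraries. In NF-kB and TNF receptor signalling 6 of 24 genes (25%, 14 and 7 in single libraries) had an active site, with 9321 and 7671 bp at TRAF3 and 6463 and 5248 bp at RELA, and 6 (25%) had primed sites only. Single libraries gave a primed-only share of 20.8%, below that of all genes, and of 33.3%, above it. Of 40 cell cycle genes 6 (15%, 21 and 7 in single libraries) had an active site and 9 (22.5%) primed sites only, with active sites at E2F2 (5640 and 2561 bp) and MYBL2 (4483 and 3637 bp) and a primed site of 6799 and 2906 bp at CDKN1A, an inhibitor of cyclin-dependent kinases. In single libraries 22.5% and 20% of the cell cycle genes had primed sites only, the former below and the latter near the share of all genes. Of 29 interferon response genes 4 (13.8%, 12 and 4 in single libraries) had an active site and 4 (13.8%, near the 15.1% of all genes) primed sites only. Their primed-only share was 27.6% and 20.7% in single libraries.

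Of 52 ribosomal protein genes 2 (3.85%, beside 6.84% of all genes) had an active site, 0 had it nearest to their own start (beside 4.27%), and 6 (11.5%, beside 15.1%) had primed sites only. Replicate 1 alone gave 20 active genes (38.5%, beside 23.1% of all genes) and replicate 2 alone gave 1 (1.92%, beside 6.48%). In single libraries 34.6% and 26.9% of these genes had primed sites only, beside 29.2% and 18.7% of all genes. Their median gene length was 5417.5 bp. Most markers of other cell types had no shared site, but this also held for 75.4% of all genes. Without one were 7 of 8 myeloid (87.5%), 7 of 11 T and NK cell (63.6%), 5 of 8 epithelial and stromal (62.5%) and 5 of 5 erythroid markers. Primed sites and no active site (15.1% of all genes) were found at LYZ, a myeloid marker (2223 and 2494 bp), at CD3E, a T-cell marker (3073 and 2386 bp), and at COL1A1, CDH1 and PDGFRB, stromal and epithelial markers. COL1A1 had 4 primed sites, the widest with 5248 and 3733 bp, and 1 intermediate site. The primed-only share was thus 37.5% of the epithelial and stromal markers, above the 15.1% of all genes. It was also 37.5% in each single library, beside 29.2% and 18.7% of all genes. The myeloid markers had 12.5%, the T and NK cell markers 9.09% and the erythroid markers 0%.

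A last comparison used the inhibitor libraries, which took no part in the choice of sites. The inhibitor H3K4me1 lists held 4094 and 4242 peaks and its H3K27ac lists 4771 and 4595. An H3K4me1 peak was still present with the inhibitor at 53.5% and 53.7% of active sites and at 26.8% and 26.2% of primed sites. The means of 53.6 ± 0.13 and 26.5 ± 0.48% (SD, n = 2) differed by 27.1 points (exact permutation p = 0.33), and the groups did not overlap. The difference was 21.6 points for sites of replicate 2 alone, 13.98 for sites of replicate 1 alone, and 32.2 for sites without H3K4me3. Active sites had the wider DMSO peaks, and the part of width in this difference was not tested. H3K27ac was present with the inhibitor at 78.7% and 74.0% of active and at 5.34% and 4.04% of primed sites. H3K27ac of DMSO cells of the same line set these classes, so this contrast is not independent of the rule. Both inhibitor libraries had H3K27ac at 138 of the 5203 primed sites, and neither had it at 259 of the 1582 active sites. These counts have no counterpart from further DMSO libraries, so they are not read as changes with the inhibitor.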

How the data were processed

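Chromatin immunoprecipitation libraries of H3K27ac, H3K4me1 and H3K4me3 from Toledo cells were used. Tools named in the submitters' processing notes are Bowtie 1.1.2 and MACS 1.4.2, with hg38 as build. Not given in the sources used here are the threshold for calling peaks, the read filters and whether inputs served as background. Each library came with 1 list deposited by the authors, holding chromosome, start and end and no score, so peaks were called per library and read depth is unknown. How many peaks pass can follow depth and enrichment.

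Overlaps, widths and distances were computed with Python 3.11.15, numpy 2.4.6, pandas 2.3.3 and scipy 1.17.1, and the code was tested on simulated data. H3K4me1 peaks of both DMSO libraries were joined into sites if they touched or shared at least 1 bp. Genes were 19974 protein-coding genes of the RefSeq table (GRCh38.p14). Of these, 15812 had their start from the promoter table, and both gene ends were used for the others. The inhibitor H3K4me3 lists and the inputs were not used.

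The library was the replicate, and 2 were compared with 2 by the two-sided exact permutation test. Named were the 8 widest active and 8 widest primed sites by percentile, the 8 genes with most sites of each kind, up to 6 active and 4 primed members of each of 16 lists, 12 panel genes and the 5 widest H3K27ac regions, of which a part is described and some are not reported here. Members added beside these (SYK, FOS, JUN, CD3E and the genes listed only by name) and the promoters other than those of CD79A and ZBTB7B were chosen after their values were seen. Of 369 listed names 367 were found. Members and lists were chosen with earlier results of these data known. Alternatives covered overlap, width, gene window, H3K4me3, list length and single libraries. Stricter lists used width, because no score is given.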

Additional observations from a re-analysis of the deposited data

How the results depend on the processing

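Of the recomputed values, 14 counts or shares moved and 4 differences turned. The other 91 were counts and shares near their value, or differences that kept their sign, some of them at another size. The library pair decided the counts. From 1 pair alone, between 1767 and 6184 sites were active and between 7906 and 18874 primed, the active share was 18.3% to 24.7%, 1295 to 4619 genes had an active site and 3727 to 5830 had primed sites only. In each range the higher value came without replicate 2. The log2 difference in distance to a gene start ran from 0.25 without replicate 1 to -1.98 without replicate 2. It also turned to -0.11 when H3K27ac within 1 kb counted and to -0.29 with all genes of the reference table. The gene-start difference turned to -4.50 points with an overlap of at least 50% of the shorter peak, which left 15.4% of sites active. The active share was 20.9% with H3K27ac within 1 kb, 20.9% with lists of equal length, and 36.0% (2923 sites, 2319 genes) with intermediate sites counted as active. With 50 kb on either side, 2543 genes had an active site. With lists of equal length the groups overlapped for the gene-start difference (4.77 points) and the H3K27ac width difference (679.5 bp), each with an exact permutation p of 0.67. An overlap of 50% left 3.06 points of the H3K4me3 difference (exact permutation p = 1). The H3K4me1 width difference was 646.5 to 914.5 bp from 1 pair alone. Averaged over width classes the gene-start difference was 11.9 points and the H3K4me3 difference 22.2 points, and the width difference was 114 bp, by construction. The gene-start order was not the same in all 10 classes. In the widest class, primed peaks reached a gene start more often (40.9% against 34.8% of active peaks in replicate 1, 33.2% against 26.6% in replicate 2). The ninth class had the same order (29.7% against 23.7% and 26.1% against 23.2%). In the narrower classes active peaks had the higher share in both replicates. Gene starts from the promoter table alone, or both ends of every gene, are settings chosen after seeing the data and gave gene-start differences of 9.39 and 6.78 points.

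With the replicate number as a block, the differences kept their values (9.37 points for gene starts, 18.8 for H3K4me3) with an exact sign-flip p of 0.5, the smallest that 2 pairs allow. Differences between the replicates over 100 kb bins correlated by 0.02 between H3K4me1 and H3K27ac, -0.01 between H3K4me1 and H3K4me3 and -0.04 between H3K27ac and H3K4me3. The labels state no pairing between marks, so the permutation test did not take the shared numbers as pairs. The classes compared come from the same libraries, however, and that pairing enters only the sign-flip test. A shared preparation was not tested. Peak lists without scores limit the comparison to presence, absence and width.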
